A study of Mus musculus with 24 samples.

Results

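The nuclear genes for the subunits of oxidative phosphorylation were followed through 6 days of hind limb unloading in the gastrocnemius and plantaris muscles of 3 mouse genotypes. A probe set, the group of oligonucleotides that reads 1 transcript on the array, was counted when its annotated symbol began with Ndufa, Ndufb, Ndufc, Ndufs, Ndufv, Uqcr, Cox4i, Cox5, Cox6, Cox7, Cox8 or Atp5, or was Sdha, Sdhb, Sdhc, Sdhd or Cyc1. This took 157 of the 22626 probe sets that are not array controls, and they stood for 85 of 12393 genes, of which 40 had 1 probe set and 45 had several. A further 8 probe sets listed such a gene together with another gene and were not counted. The study asked which genes depend on the NF-κB proteins p50, encoded by Nfkb1, and Bcl-3 when unloaded muscle wastes. It had 6 groups of 4 male mice, 6 weeks old, with 1 Affymetrix Mouse Genome 430A 2.0 array per mouse: Nfkb1-/- mice (B6;129P2-Nfkb1tm1Bal/J), Bcl3-/- mice (FVB;129P2-Bcl3tm1Ver/J) and wild type mice (WT, B6129PF2/J), each with the hind limbs either unloaded for 6 days (HU) or kept weight bearing (WB). Both deletions are in the germline and so affect every tissue, and the 3 lines are on different strain backgrounds.

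Oxidative phosphorylation passes electrons from NADH and succinate along the inner mitochondrial membrane to oxygen. Complex I (NADH dehydrogenase) and complex II (succinate dehydrogenase) hand electrons to ubiquinone, complex III (the cytochrome bc1 complex) passes them to cytochrome c, and complex IV (cytochrome c oxidase) reduces oxygen, while complex V (ATP synthase) uses the proton gradient to make ATP. Most subunits are encoded in the nucleus, a smaller set in mitochondrial DNA, and the whole system is richer in slow and oxidative fibres than in the fast glycolytic fibres that make up most of the mouse gastrocnemius and plantaris.

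The deposited intensities had array medians of 11.61 to 11.92 on the 16 Nfkb1-/- and WT arrays and 81.12 to 86.81 on the 8 Bcl3-/- arrays, so the Bcl3-/- arrays are on a scale of their own. HU and WB were therefore compared within each genotype, and no test was made of levels between Bcl3-/- mice and the other lines, in which genotype, strain and array scale cannot be told apart. The ratio of Bcl3-/- to WT level in WB mice was not the same for all probe sets. Its median was 4.98 (range 0.326 to 12.5) over the 139 brighter subunit probe sets described below, and 6.72 over all probe sets tested. Any effect of this on the size of log2 fold changes in Bcl3-/- mice was not tested. Skeletal muscle markers were present as labelled, and of 10 such genes 1 passed the test in Nfkb1-/- mice (Des, higher in HU) and 0 passed in Bcl3-/- and WT mice. Their summed intensity in Nfkb1-/- mice was 50000 to 50840 in HU against 51620 to 52180 in WB arrays, without overlap. The sums overlapped in Bcl3-/- mice (149800 to 154200 against 143200 to 156700) and WT mice (51470 to 52670 against 50960 to 51630). The log2 ratio of the 3' to the 5' control probe set of Gapdh, a sign of RNA integrity, was 0.194 ± 0.018 in Nfkb1-/- HU against 0.14 ± 0.029 in WB arrays, 0.058 ± 0.024 in Bcl3-/- HU against 0.054 ± 0.01 in WB arrays and 0.149 ± 0.025 in WT HU against 0.17 ± 0.028 in WB arrays (SD, n = 4 each). In Nfkb1-/- mice the Gapdh ratios of all 4 HU arrays (0.176 to 0.21) lay above those of all 4 WB arrays (0.105 to 0.175). The same ratio for beta-actin was 0.071 ± 0.067 in Nfkb1-/- HU against 0.054 ± 0.02 in WB arrays. It was -0.205 ± 0.035 against -0.192 ± 0.058 in Bcl3-/- mice and 0.022 ± 0.009 against 0.007 ± 0.034 in WT mice. The part of RNA integrity in the results that follow was not tested.

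Subunit transcripts that passed the test fell with unloading in all 3 genotypes, and none passed as higher. Of the 157 probe sets, 153 (84 genes) exceeded an intensity of 20 on at least 4 arrays and were tested. Cox7c had no tested probe set, and of the 153 there were 14 that exceeded 20 only through the higher scale of the Bcl3-/- arrays. In Nfkb1-/- mice 76 probe sets were lower in HU than in WB and 0 were higher (limma, Benjamini-Hochberg adjusted p under 0.05 over all 19294 probe sets tested), or 49.7% of the members against 6.59% of all probe sets lower and 4.79% higher. In Bcl3-/- mice 11 were lower and 0 higher, or 7.19% against 2.81% of all probe sets lower and 7.59% higher. In WT mice 37 were lower and 0 higher, or 24.2% against 1.66% lower and 2.31% higher. With array medians of 11.61 to 11.92 on the Nfkb1-/- and WT arrays, many of the 19294 probe sets were also under 20 there. The shares and medians over all probe sets include these dim probe sets, a larger part than among the members. Shares over the brighter probe sets alone were not computed. At an unadjusted p under 0.05 the members higher in HU numbered 1, 1 and 4 in Nfkb1-/-, Bcl3-/- and WT mice. The 1 in Nfkb1-/- mice was a dim probe set of Ndufa12 (1425919_at, mean 17.7 in HU against 10.9 in WB), which reached the intensity minimum only because of the Bcl3-/- arrays. The 4 in WT mice, 3 in complex I and 1 in complex II, all exceeded 20 on at least 4 of the Nfkb1-/- and WT arrays. In whole muscle RNA, fewer fibres or cells of a type and less transcript per cell cannot be told apart. The mice of a group are separate animals, and each test set a mean difference against a between-animal variance pooled over all 6 groups. A call in 1 genotype therefore does not rest on the spread of that genotype alone.

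The falls were modest and, by the sign of the estimate, spread over most members. The median log2 fold change over the 153 members was -0.24 in Nfkb1-/- mice, -0.07 in Bcl3-/- mice and -0.17 in WT mice, where the medians of all probe sets tested were -0.00133, 0.0184 and -0.00784. The estimate was below 0 for 137, 110 and 123 of the 153 members in Nfkb1-/-, Bcl3-/- and WT mice, and 96 were below 0 in all 3. Of all probe sets tested, 50.3%, 46.4% and 52% were below 0 in these genotypes, and the share below 0 in all 3 was not computed. All 4 HU arrays lay below all 4 WB arrays for 101 members in Nfkb1-/- mice (10.9% of all probe sets), 27 in Bcl3-/- mice (4.07%) and 53 in WT mice (4.89%). They lay above for 0 (7.71% of all probe sets), 4 (11.4%) and 1 (5.86%). The 1 in WT mice was Ndufs3 (1423737_at), a core subunit of complex I, which did not pass the test. It had 1199.5, 1220.7, 1299.3 and 1306.1 in HU against 1147.9, 1162.7, 1141.9 and 1090.4 in WB in WT mice. Counted as genes, with 1 probe set each, 43 of 84 were lower in Nfkb1-/- mice, 7 in Bcl3-/- mice and 19 in WT mice. The WT and Bcl3-/- counts depended most on the setting. The WT count was 3 when the WT arrays were fitted without the other genotypes, and leaving out WT HU replicate 1, 3 or 4 or WB replicate 1 or 2 gave 14, 17, 21, 16 and 14. The Bcl3-/- count was 4 when fitted alone and up to 26 under other settings, 5 without HU replicate 1 or HU replicate 3 and 7 without WB replicate 1.

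Averaged over the 139 members that exceeded 20 on at least 4 of the Nfkb1-/- and WT arrays, the arrays of unloaded mice sat below the weight bearing mean of their genotype. On a log2 scale relative to that mean, the 4 Nfkb1-/- HU arrays were at -0.2461, -0.2578, -0.2209 and -0.3393 and the 4 Nfkb1-/- WB arrays between -0.03044 and 0.02158. The 4 Bcl3-/- HU arrays were between -0.1112 and -0.0333, inside the -0.1018 to 0.07268 of the Bcl3-/- WB arrays except for replicates 1 and 3 (-0.1034 and -0.1112). The 4 WT HU arrays were at -0.2531, -0.0713, -0.156 and -0.1876, against 0.04496, 0.05607, -0.0227 and -0.0784 in WT WB arrays. The groups stood apart in Nfkb1-/- mice and overlapped in the other lines, in WT mice through HU replicate 2 and WB replicate 4 alone.

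**Figure D1:**
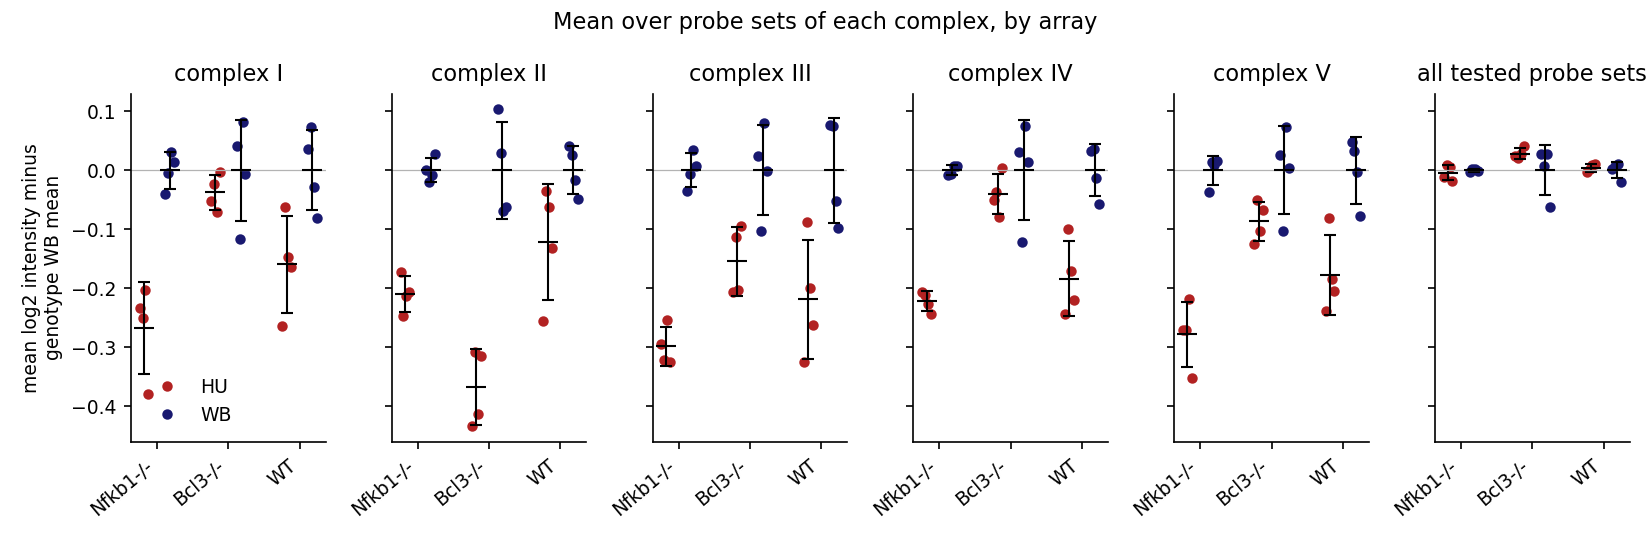
Each point is 1 array and gives the mean over the probe sets of a complex, as log2 intensity minus the weight bearing (WB) mean of that genotype, with unloaded (HU) arrays in red and WB arrays in dark blue; bars show the mean and SD of 4 arrays. Complex I averaged -0.267 in Nfkb1-/- HU, -0.0375 in Bcl3-/- HU and -0.16 in WT HU, complex II was lowest in Bcl3-/- HU at -0.368, and the mean over all tested probe sets was -0.00398, 0.0283 and 0.00393.

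**Figure D2:**
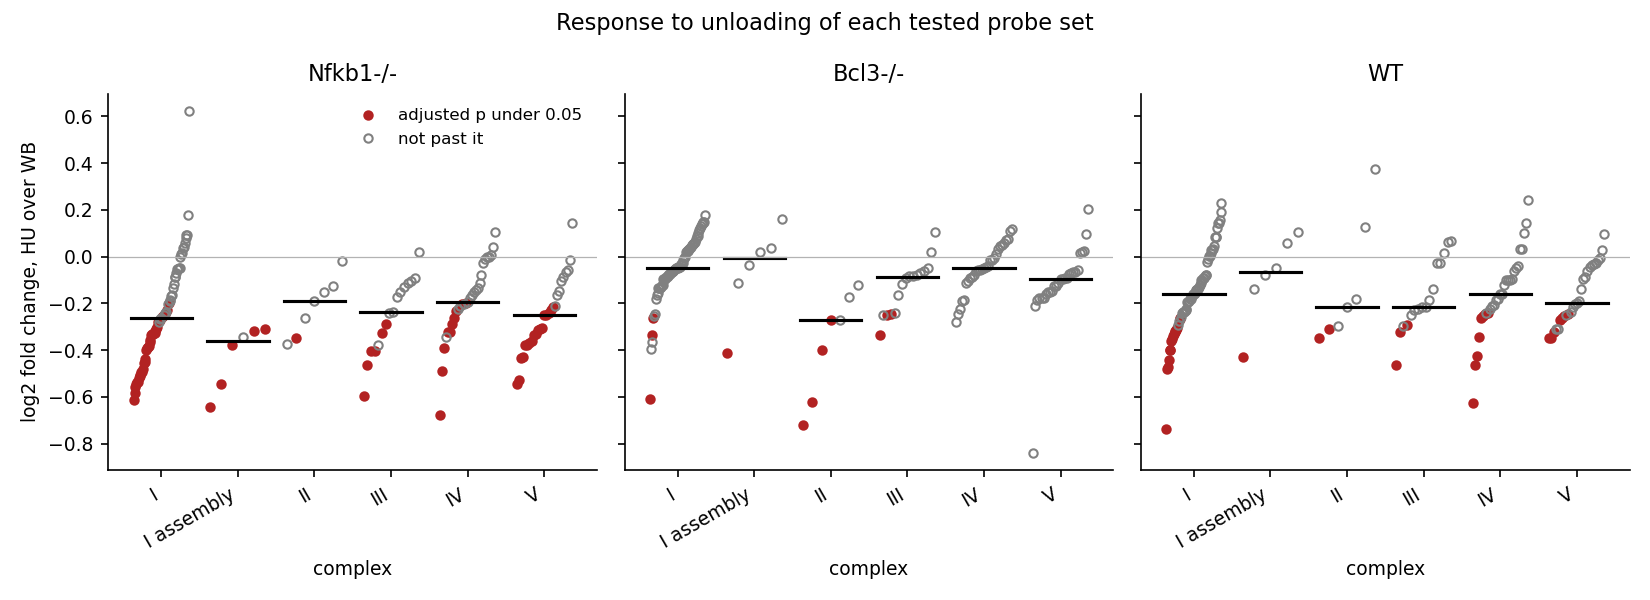
Each point is a tested probe set, placed by complex on the x axis and by its log2 fold change, HU over WB, on the y axis; filled points passed an adjusted p of 0.05, black lines are medians, and Ndufa4 is left out. Filled points lie below 0 in every panel, in all complexes in Nfkb1-/- mice and WT mice, and in complexes I, II and III and an assembly factor in Bcl3-/- mice.

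4 genes had a probe set that passed the test in all 3 genotypes, lower each time: Ndufs1, Sdhb, Uqcrc2 and Ndufa10. Of all probe sets tested, 0.233% were lower in all 3. Ndufs1, the largest iron-sulfur subunit of complex I, had intensities of 706, 667, 753 and 632 in HU against 828, 811, 899 and 858 in WB in Nfkb1-/- mice. The values were 2926, 3091, 2935 and 3298 in HU against 3875, 3836, 4027 and 3693 in WB in Bcl3-/- mice and 619.5, 789, 692 and 649 in HU against 841, 921, 846 and 810.4 in WB in WT mice. Every HU array was below every WB array of its genotype, with log2 fold changes of -0.30 ± 0.08 (SE; adjusted p = 0.015), -0.33 ± 0.08 (adjusted p = 0.01) and -0.32 ± 0.08 (adjusted p = 0.024) in Nfkb1-/-, Bcl3-/- and WT mice. Sdhb, the iron-sulfur subunit of complex II, read 1428, 1497, 1501 and 1461 in HU against 1770.2, 1923, 1956 and 1841 in WB in Nfkb1-/- mice. It read 6336, 6971, 6493 and 6727 in HU against 8719.8, 7033, 8526 and 7850.3 in WB in Bcl3-/- mice and 1332, 1604, 1526 and 1512 in HU against 1868, 2011, 1794 and 1735 in WB in WT mice. Again no HU array reached a WB array, and the log2 fold changes were -0.35 ± 0.08, -0.27 ± 0.08 and -0.31 ± 0.08 (adjusted p = 0.0052, 0.029 and 0.024).

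Uqcrc2, a core protein of complex III on its matrix side, had in its probe set 1428631_a_at 913, 931, 940.3 and 859 in HU against 1179, 1173, 1201 and 1265 in WB in Nfkb1-/- mice. Values were 4066, 4561, 4293 and 4656 in HU against 5615, 6043, 5544 and 5014 in WB in Bcl3-/- mice and 935, 1069.6, 946 and 902 in HU against 1264, 1252, 1173 and 1123 in WB in WT mice. The groups did not overlap in any genotype, and the log2 fold changes were -0.40 ± 0.08, -0.34 ± 0.08 and -0.32 ± 0.08 (adjusted p = 0.0013, 0.0071 and 0.017). A second Uqcrc2 probe set, 1435757_a_at, had 852, 936, 963 and 733 in HU against 1179.5, 1138, 1184 and 1278 in WB in Nfkb1-/- mice, where the groups stood apart and it passed (-0.46 ± 0.09, adjusted p = 0.002), while the groups overlapped in Bcl3-/- mice (-0.17) and WT mice (-0.25). Ndufa10, an accessory subunit in the membrane arm of complex I, gave through 1418068_at dim values of 23.4, 20.5, 20.7 and 18.9 in HU against 30.3, 29.8, 33.1 and 34.5 in WB in Nfkb1-/- mice. Its values were 138, 174, 139 and 149.5 in HU against 310.4, 219, 208 and 192 in WB in Bcl3-/- mice and 18.7, 29.7, 18.2 and 17.8 in HU against 39.3, 36.8, 32.7 and 29.7 in WB in WT mice, where HU replicate 2 touched the lowest WB array. The log2 fold changes of -0.62 ± 0.15, -0.61 ± 0.15 and -0.74 ± 0.15 (adjusted p = 0.0078, 0.011 and 0.0054) stand close to the intensity minimum of 20 in Nfkb1-/- and WT mice. The brighter Ndufa10 probe set 1448934_at fell less, by estimates of -0.28, -0.26 and -0.19, and in WT mice did not pass the test (adjusted p = 0.17).

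**Figure D3:**
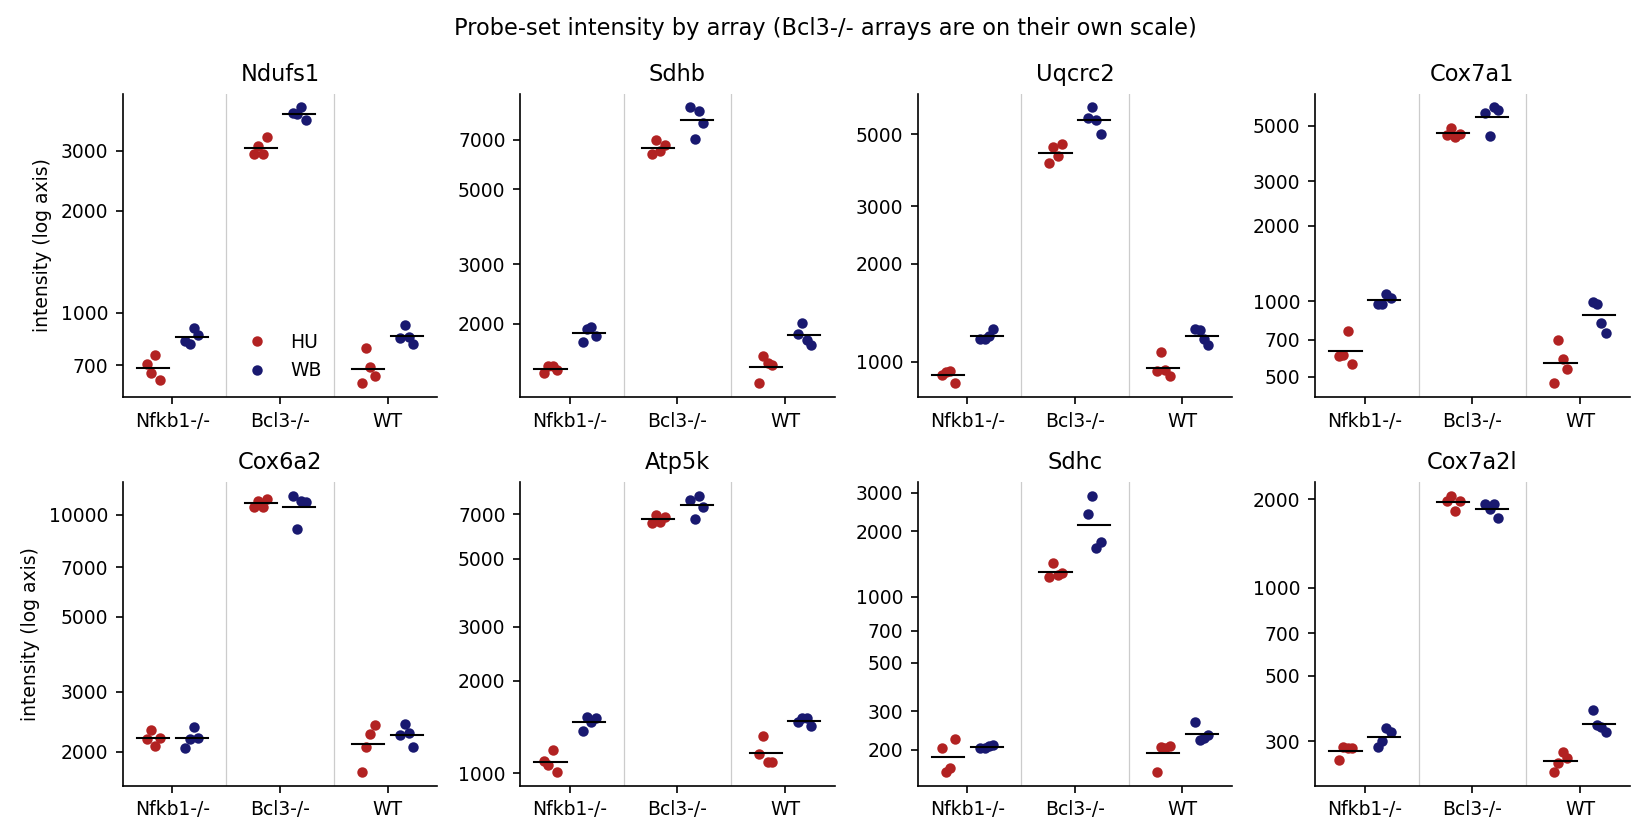
Intensity on a log axis of 8 probe sets, 1 point per array, with HU (red) left of WB (dark blue) in each genotype and a line at the geometric mean of 4 arrays; Bcl3-/- arrays are on their own, higher scale. Ndufs1, Sdhb and Uqcrc2 separate in all 3 genotypes, Cox7a1 and Atp5k (1450640_x_at) in Nfkb1-/- and WT mice, Sdhc (1435986_x_at) in Bcl3-/- and WT mice, Cox7a2l (1432264_x_at) in WT mice, and Cox6a2 in none.

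Nuclear oxidative phosphorylation genes are known as targets of the factors NRF-1, ERR, YY1 and the ETS family, and the study turned on NF-κB, so the promoters were searched for the letters of their sites. The windows run from 250 bases before to 50 after the RefSeq start in GRCm38.p6, and 70 of the 85 genes matched, with 75 windows. Both strands were searched, and in the windows shown no motif overlapped another, except that NRF-1 in Atp5k matched on both strands at once. The NRF-1 motif GCGCATGCG was in 9 of 75 windows (12%) against 1.75% of all 32851 promoter windows, in Atp5g2, Atp5k, Atp5l, Cox6a1, Ndufa8, Ndufaf4, Ndufaf5, Uqcr11 and Uqcrc1. The YY1 motif AAGATGGCG was in 6 windows (8%, against 1.4%), the ERR motif TNAAGGTCA in 2 (2.67%, against 1.28%), the ETS motif ACCGGAAGT in 1 (1.33%, against 1.1%) and the NF-κB consensus in 1 (1.33%, against 4.5%). These are matches of letters and say nothing of binding. The windows printed are those of 2 members lower in all 3 genotypes, of Cox7a1, which had the largest fall in complex IV in Nfkb1-/- and WT mice, of Atp5k, which fell in Nfkb1-/- and WT mice, and of Sdhd, whose response differed between genotypes. Capitals mark a match: NRF-1 in Atp5k and, both on the reverse strand, the NF-κB consensus in Sdhb and ERR in Sdhd, with 0 matches in Ndufa10 and Cox7a1. Coordinates are chr1:92473709-92474008 (minus strand) for Ndufa10, chr4:140961021-140961320 (plus) for Sdhb, chr7:30183921-30184220 (plus) for Cox7a1, chr5:108434350-108434649 (minus) for Atp5k and chr9:50603800-50604099 (minus) for Sdhd, each written 5′ to 3′ along the gene's strand.
Ndufa10: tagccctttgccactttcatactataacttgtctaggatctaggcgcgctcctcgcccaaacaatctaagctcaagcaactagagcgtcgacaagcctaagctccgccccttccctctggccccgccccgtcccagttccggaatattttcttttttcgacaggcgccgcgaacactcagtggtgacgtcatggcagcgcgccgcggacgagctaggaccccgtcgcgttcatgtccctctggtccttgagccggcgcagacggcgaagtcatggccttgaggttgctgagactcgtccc
Sdhb: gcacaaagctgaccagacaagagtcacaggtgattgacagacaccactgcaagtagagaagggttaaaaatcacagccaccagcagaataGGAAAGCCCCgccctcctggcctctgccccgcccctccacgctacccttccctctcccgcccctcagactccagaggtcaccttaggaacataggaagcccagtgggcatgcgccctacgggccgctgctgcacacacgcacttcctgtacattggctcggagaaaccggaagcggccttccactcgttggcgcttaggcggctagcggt
Cox7a1: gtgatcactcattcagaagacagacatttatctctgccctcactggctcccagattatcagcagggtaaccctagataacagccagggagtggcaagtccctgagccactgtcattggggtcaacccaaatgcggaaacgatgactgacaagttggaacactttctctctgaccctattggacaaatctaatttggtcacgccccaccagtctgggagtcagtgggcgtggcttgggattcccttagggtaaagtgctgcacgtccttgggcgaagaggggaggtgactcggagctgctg
Atp5k: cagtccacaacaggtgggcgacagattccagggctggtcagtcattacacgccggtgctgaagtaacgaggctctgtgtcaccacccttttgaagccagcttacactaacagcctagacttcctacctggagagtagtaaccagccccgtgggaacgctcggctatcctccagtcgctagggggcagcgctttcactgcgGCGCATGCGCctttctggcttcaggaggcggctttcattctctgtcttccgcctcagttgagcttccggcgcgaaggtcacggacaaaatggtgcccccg
Sdhd: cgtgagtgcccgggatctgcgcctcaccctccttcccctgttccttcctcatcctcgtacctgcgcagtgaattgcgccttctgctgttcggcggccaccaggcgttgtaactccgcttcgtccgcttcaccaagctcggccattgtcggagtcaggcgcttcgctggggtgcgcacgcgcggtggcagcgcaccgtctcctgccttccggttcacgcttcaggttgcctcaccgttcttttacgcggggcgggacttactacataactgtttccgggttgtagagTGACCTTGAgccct

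Complex I had 67 tested probe sets of 33 genes, of which 36 were lower in Nfkb1-/- mice, 3 in Bcl3-/- mice and 16 in WT mice, with medians of -0.26, -0.05 and -0.16. These counts were 53.7%, 4.48% and 23.9%, against 6.59%, 2.81% and 1.66% of all probe sets tested. Falls reached both the catalytic core and the accessory subunits around it: 9 of 15 core probe sets and 27 of 47 accessory ones above the floor were lower in Nfkb1-/- mice, against 6 and 10 in WT mice and 1 and 2 in Bcl3-/- mice. Of 6 core genes, the falls came from 3 in Nfkb1-/- mice, 1 in Bcl3-/- mice and 2 in WT mice. In WT mice 5 of the 6 core probe sets lower were those of Ndufs8. Ndufs8, an iron-sulfur subunit on the way to ubiquinone, had in 1423908_at 247, 256, 273 and 223 in HU against 354, 370.0, 398 and 373 in WB in Nfkb1-/- mice. The values were 1826, 1892, 1706 and 1814 in HU against 2065, 1739, 2222 and 1878 in WB in Bcl3-/- mice and 240.2, 298, 279 and 280.2 in HU against 383, 392, 367 and 347 in WB in WT mice. HU and WB arrays separated in Nfkb1-/- and WT mice and overlapped in Bcl3-/- mice, with log2 fold changes of -0.58 ± 0.09 (adjusted p = 1.9e-04), -0.12 ± 0.09 (adjusted p = 0.4) and -0.44 ± 0.09 (adjusted p = 0.0044). Of its 6 probe sets, 5 passed the floor, and their log2 fold changes lay between -0.58 and -0.46 in Nfkb1-/- mice, -0.14 and -0.06 in Bcl3-/- mice and -0.48 and -0.36 in WT mice.

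Not every core subunit passed the test. Ndufv1, which binds NADH and the flavin, had 831, 792, 734 and 751 in HU against 748, 788, 757 and 733 in WB in Nfkb1-/- mice. Values were 4689.5, 4718, 4581 and 4908 in HU against 5078, 4518, 5638 and 4632 in WB in Bcl3-/- mice and 683, 802, 794 and 805 in HU against 813, 865, 821 and 756 in WB in WT mice. The groups overlapped in each genotype, and the estimates of 0.04, -0.07 and -0.08 had 95% intervals of -0.13 to 0.20, -0.23 to 0.10 and -0.24 to 0.08. The accessory subunit gene Ndufa7 was estimated above 0 in most of its probe sets: its 5 gave -0.05 to 0.09 in Nfkb1-/- mice, 0.12 to 0.15 in Bcl3-/- mice and 0.05 to 0.16 in WT mice, and none passed the test. Of the complex I assembly factors that share the Ndufa prefix, 5 of 6 probe sets were lower in Nfkb1-/- mice (median -0.36), 1 in Bcl3-/- mice (-0.01) and 1 in WT mice (-0.06). Ndufa4, long counted with complex I and now placed with complex IV, had 1470.3, 1440.5, 1405 and 1406 in HU against 1394, 1512, 1575 and 1435 in WB in Nfkb1-/- mice, 7329, 7493, 7437 and 7878 in HU against 8464, 7782, 7979 and 7634 in WB in Bcl3-/- mice and 1370.5, 1576, 1463 and 1407 in HU against 1599.6, 1545, 1471 and 1471 in WB in WT mice, overlapping in all, with estimates of -0.05, -0.08 and -0.07.

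Complex II, the smallest complex and the only one that also belongs to the citrate cycle, was the complex with the lowest median in Bcl3-/- mice. Its 7 probe sets had medians of -0.19 in Nfkb1-/- mice, -0.27 in Bcl3-/- mice and -0.22 in WT mice, and 1, 4 and 2 were lower. As shares this was 14.3%, 57.1% and 28.6%, against 6.59%, 2.81% and 1.66% of all probe sets tested. Averaged over the 7, the Bcl3-/- HU arrays were at -0.4335, -0.3089, -0.4134 and -0.3157 against 0.1032, 0.0283, -0.0686 and -0.063 in WB. In Bcl3-/- mice the fall was greatest in Sdhc, the gene of a membrane anchor that binds ubiquinone. Sdhc (1435986_x_at) had 203, 158, 165 and 223 in HU against 203, 202, 207 and 210.3 in WB in Nfkb1-/- mice. It had 1238, 1427, 1261 and 1286 in HU against 2410.1, 2906, 1679 and 1786 in WB in Bcl3-/- mice and 158, 206, 202 and 207 in HU against 267, 220.1, 226 and 232 in WB in WT mice. HU and WB stood apart in Bcl3-/- and WT mice but not in Nfkb1-/- mice, and only the Bcl3-/- log2 fold change of -0.72 ± 0.14 (adjusted p = 0.0023) passed, against -0.15 ± 0.14 (adjusted p = 0.58) in Nfkb1-/- mice and -0.29 ± 0.14 (adjusted p = 0.26) in WT mice. The second Sdhc probe set, 1448630_a_at, gave 1682, 1901, 1791 and 1885 in HU against 3684, 3184, 2448 and 2108 in WB in Bcl3-/- mice and log2 fold changes of -0.26, -0.62 and -0.18 in Nfkb1-/-, Bcl3-/- and WT mice. The Bcl3-/- WB arrays were widely spread in both probe sets, and the HU arrays were close together. The Bcl3-/- minus WT difference in response for 1435986_x_at was -0.42 ± 0.20 (adjusted p = 0.34) and did not pass.

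Sdhd, the other anchor, gave estimates of opposite sign between the knockouts and WT through 1437489_x_at, with 28.6, 30.9, 35.8 and 28.7 in HU against 45.2, 37.8, 37.3 and 40.4 in WB in Nfkb1-/- mice, 313, 332, 327 and 342 in HU against 345, 483, 369 and 575 in WB in Bcl3-/- mice and 49.5, 47.7, 48.1 and 38.0 in HU against 37.2, 35.3, 29.7 and 39.0 in WB in WT mice. All HU arrays were below all WB arrays in both knockouts, whereas in WT mice 3 of 4 HU arrays were above every WB array. The log2 fold changes were -0.37 ± 0.13 (adjusted p = 0.065), -0.40 ± 0.13 (adjusted p = 0.0499) and 0.38 ± 0.13 (adjusted p = 0.11), so only the Bcl3-/- fall passed. The Bcl3-/- response differed from the WT response by -0.78 ± 0.18 (adjusted p = 0.037), and the Nfkb1-/- response by -0.75 ± 0.18 (adjusted p = 0.083). The other Sdhd probe set, 1428235_at, gave -0.19, -0.27 and 0.12 and passed in no genotype. Sdha, the flavoprotein that oxidises succinate, had in 1426688_at 1149, 1152, 1102 and 1066 in HU against 1233, 1120.2, 1255 and 1277 in WB in Nfkb1-/- mice. Its values were 3399, 3444, 3076 and 3337 in HU against 3924, 3049.5, 4017 and 3482 in WB in Bcl3-/- mice and 857, 1004, 1006 and 994 in HU against 1247, 1304, 1218 and 1145 in WB in WT mice. It was lower in WT mice alone (-0.35 ± 0.09, adjusted p = 0.02), with -0.13 ± 0.09 in Nfkb1-/- mice and -0.12 ± 0.09 in Bcl3-/- mice, and its probe set 1426689_s_at passed in no genotype (-0.02, -0.17 and -0.22).

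Complex III had 16 tested probe sets of 9 genes, and 6, 3 and 3 were lower in Nfkb1-/-, Bcl3-/- and WT mice (medians -0.24, -0.09 and -0.22). In percent, 37.5, 18.8 and 18.8 were lower, against 6.59, 2.81 and 1.66 of all probe sets tested. Of the 3 probe sets of its core proteins, 3, 1 and 2 were lower. Uqcrc1, the partner of Uqcrc2, had 885, 825, 844 and 888 in HU against 986, 1157, 1020.1 and 1047 in WB in Nfkb1-/- mice. Values were 5461, 5856, 5925 and 6514 in HU against 7898, 6421, 7419.5 and 6387 in WB in Bcl3-/- mice and 823, 990.3, 909.7 and 911 in HU against 1094, 1164, 1118 and 1063 in WB in WT mice. HU and WB arrays separated in Nfkb1-/- and WT mice, with log2 fold changes of -0.29 ± 0.08, -0.24 ± 0.08 and -0.29 ± 0.08 (adjusted p = 0.026, 0.065 and 0.049). Cyc1, which carries the haem of cytochrome c1, read 1212, 1108, 1133 and 1151 in HU against 1526, 1518, 1491 and 1545 in WB in Nfkb1-/- mice, 5098, 5494, 5293 and 6199.6 in HU against 6768, 6285, 7126 and 6030.4 in WB in Bcl3-/- mice and 1268, 1519, 1319.7 and 1278 in HU against 1562, 1631, 1562 and 1486 in WB in WT mice. Only the Nfkb1-/- groups did not overlap, and the log2 fold changes of -0.40 ± 0.08 and -0.25 ± 0.08 passed (adjusted p = 0.0016 and 0.043) while -0.22 ± 0.08 in WT mice did not (adjusted p = 0.12). Uqcrfs1, the Rieske iron-sulfur protein, read 1242, 1181, 1202 and 1183 in HU against 1326, 1323, 1380.4 and 1384 in WB in Nfkb1-/- mice, 4959, 5367, 5158 and 5442 in HU against 6696, 6134, 6119 and 5868 in WB in Bcl3-/- mice and 1103, 1299, 1200.1 and 1188 in HU against 1380.3, 1479, 1306 and 1278 in WB in WT mice. It separated in both knockouts, and passed in Bcl3-/- mice (-0.25 ± 0.07, adjusted p = 0.028) but not in Nfkb1-/- mice (-0.17 ± 0.07, adjusted p = 0.13) or WT mice (-0.18 ± 0.07, adjusted p = 0.15).

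Among the small subunits of complex III, 2 of 8 probe sets above the floor were lower in Nfkb1-/- mice, 0 in Bcl3-/- mice and 1 in WT mice. Uqcr10 gave its largest change through 1434340_at, with 118, 121, 149 and 119.5 in HU against 192, 185, 215 and 175 in WB in Nfkb1-/- mice. It had 62.0, 58.3, 54.1 and 67.6 in HU against 66.5, 49.1, 67.8 and 74.4 in WB in Bcl3-/- mice and 117, 148, 156 and 149.8 in HU against 227, 225, 186 and 154 in WB in WT mice, where HU replicate 3 and WB replicate 4 overlapped. Log2 fold changes were -0.60 ± 0.13 (adjusted p = 0.0043), -0.08 ± 0.13 (adjusted p = 0.75) and -0.46 ± 0.13 (adjusted p = 0.049). This probe set went against the array scale, as its Bcl3-/- WB level was 0.326 times the WT WB level. The median ratio was 4.98 over the 139 members and 6.72 over all probe sets tested, and it was under 2 for 3 members. The other Uqcr10 probe sets, 1424364_a_at and 1434341_x_at, gave -0.13 and -0.38 in Nfkb1-/- mice, -0.08 and -0.25 in Bcl3-/- mice and -0.14 and -0.23 in WT mice.

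Complex IV had 29 tested probe sets of 15 genes, with 10 lower in Nfkb1-/- mice, 0 in Bcl3-/- mice and 8 in WT mice (medians -0.19, -0.05 and -0.16). The shares lower were 34.5%, 0% and 27.6%, against 6.59%, 2.81% and 1.66% of all probe sets tested. In the 25 probe sets above the floor, 0 were lower in Bcl3-/- mice at an unadjusted p under 0.05 as well. Several of its subunits have a form found mainly in heart and skeletal muscle and a form found widely, and not all muscle forms passed the test. Cox7a1, a muscle form, fell more than any other member in Nfkb1-/- mice, with 603, 610.4, 759 and 562 in HU against 972, 976, 1062 and 1026 in WB. Its values were 4608, 4883, 4525 and 4638 in HU against 5614, 4537, 5924 and 5805 in WB in Bcl3-/- mice and 469.5, 701, 586 and 535 in HU against 990.0, 974, 819 and 745 in WB in WT mice. HU arrays stood clear below WB arrays in Nfkb1-/- and WT mice and overlapped them in Bcl3-/- mice through WB replicate 2, with log2 fold changes of -0.68 ± 0.12 (adjusted p = 7.1e-04), -0.22 ± 0.12 (adjusted p = 0.23) and -0.63 ± 0.12 (adjusted p = 0.0036). The Bcl3-/- minus WT difference was 0.41 ± 0.17 (adjusted p = 0.28).

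The muscle forms Cox6a2 and Cox8b did not pass in any genotype. Cox6a2 had 2187, 2319.9, 2086 and 2188 in HU against 2051, 2174, 2360.5 and 2199 in WB in Nfkb1-/- mice, 10529, 11008, 10529 and 11126 in HU against 11368, 9088, 10976 and 10921 in WB in Bcl3-/- mice and 1744, 2072, 2256 and 2394 in HU against 2247, 2415, 2271 and 2065 in WB in WT mice. All groups overlapped, and the 95% intervals of the log2 fold change were -0.19 to 0.19, -0.15 to 0.22 and -0.28 to 0.09. Cox8b had 1969, 2013, 1975 and 1849.7 in HU against 1836, 1977, 2197 and 1948 in WB in Nfkb1-/- mice, 8804, 9479, 9386 and 9740.0 in HU against 9339, 8052, 9882 and 9090.1 in WB in Bcl3-/- mice and 1327, 1651, 1850.1 and 1777 in HU against 1976, 1956, 1859.9 and 1774 in WB in WT mice. These overlapped too, with estimates of -0.03, 0.04 and -0.21. Of the wide forms, Cox7a2 (1416970_a_at) was lower in Nfkb1-/- mice, with 1959, 1784, 1853 and 1705 in HU against 2086, 2052, 2136 and 2086 in WB and a log2 fold change of -0.20 ± 0.06 (adjusted p = 0.049), against -0.01 in Bcl3-/- mice and -0.06 in WT mice. Cox6a1 and Cox8a passed in no genotype: Cox6a1 (1417417_a_at) gave -0.11, -0.19 and -0.19, and Cox8a (1416112_at) -0.16, -0.06 and -0.16 in Nfkb1-/-, Bcl3-/- and WT mice.

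Cox4i1, the common form of the largest nuclear-encoded subunit, had 1987, 2049.7, 1992 and 2051 in HU against 2343, 2373, 2409 and 2375 in WB in Nfkb1-/- mice. It had 9947, 10242, 10031 and 10302 in HU against 10825, 9465, 11220.0 and 10185 in WB in Bcl3-/- mice and 1870.2, 2087, 2031 and 2064 in HU against 2557, 2518, 2297 and 2281 in WB in WT mice. The groups separated in Nfkb1-/- and WT mice, with -0.23 ± 0.07 (adjusted p = 0.027), -0.04 ± 0.07 (adjusted p = 0.77) and -0.26 ± 0.07 (adjusted p = 0.029) on the log2 scale. Its partner form Cox4i2, known from lung, was below an intensity of 20 on all Nfkb1-/- and WT arrays, at 10.4 to 14.7. Cox5a, which binds Cox4i1 early in assembly, had in 1415933_a_at 1466, 1399.9, 1378 and 1161 in HU against 2032, 1836, 1684 and 2018 in WB in Nfkb1-/- mice, 8554, 8918, 8866 and 8832 in HU against 9051, 8944, 9128 and 10249 in WB in Bcl3-/- mice and 1679, 1884, 1479 and 1435 in HU against 1640.2, 1608, 1734 and 1645 in WB in WT mice. HU arrays were below WB arrays in both knockouts but not in WT mice, and the log2 fold changes were -0.49 ± 0.09 (adjusted p = 0.0012), -0.09 ± 0.09 (adjusted p = 0.59) and -0.04 ± 0.09 (adjusted p = 0.87). Its brighter probe set 1448153_at gave -0.21, -0.08 and -0.16 and passed in no genotype.

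Cox7a2l, which joins complexes III and IV into supercomplexes, was the member whose WT fall was largest against its Bcl3-/- value. In 1432263_a_at it had 135, 138, 153 and 138 in HU against 154, 153, 178 and 175 in WB in Nfkb1-/- mice. The values were 1349, 1321, 1162 and 1171 in HU against 1229.9, 1135, 1316 and 1126 in WB in Bcl3-/- mice and 115, 118, 139 and 129.7 in HU against 191, 173, 164 and 163 in WB in WT mice. HU was below WB on every array in Nfkb1-/- and WT mice, and the arrays overlapped in Bcl3-/- mice. Log2 fold changes were -0.23 ± 0.09 (adjusted p = 0.098), 0.06 ± 0.09 (adjusted p = 0.72) and -0.46 ± 0.09 (adjusted p = 0.0036). The Bcl3-/- response was above the WT response by 0.52 ± 0.12 (adjusted p = 0.036), and in 1432264_x_at, with 1969, 2052, 1818 and 1976 in HU against 1926, 1849.7, 1922 and 1727 in WB in Bcl3-/- mice and 236, 253, 275 and 262 in HU against 383, 341, 335 and 321 in WB in WT mice, by 0.50 ± 0.11 (adjusted p = 0.024). The third probe set, 1421772_a_at, ran the same way, with -0.20, 0.07 and -0.34.

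Complex V had 27 tested probe sets of 17 genes, and 18 were lower in Nfkb1-/- mice, 0 in Bcl3-/- mice and 7 in WT mice (medians -0.25, -0.1 and -0.2). Those lower and higher in Bcl3-/- mice were 7 and 1 at an unadjusted p under 0.05. Like the other groups within complexes, the parts of the enzyme were set after the values were seen, so their counts are description only. In Nfkb1-/- mice all 7 probe sets of the peripheral stalk (4 genes) and 7 of 8 of the small membrane subunits (5 genes) were lower. In the F1 head (5 genes) 2 of 7 were lower. In WT mice these counts were 2, 5 and 0. Of all probe sets tested, 6.59% were lower in Nfkb1-/- mice, 2.81% in Bcl3-/- mice and 1.66% in WT mice. Atp5a1 and Atp5b, the alpha and beta subunits that hold the catalytic sites, passed in no genotype. Atp5b (1416829_at) had 2059, 2154, 2074 and 2041 in HU against 2232, 2161, 2109.8 and 2225 in WB in Nfkb1-/- mice. It had 9374, 9886, 10013 and 10267 in HU against 10796, 9581, 10717 and 10364 in WB in Bcl3-/- mice and 2074, 2127, 2074 and 2045 in HU against 2194, 2186, 2076 and 2058 in WB in WT mice. The groups overlapped in each, with 95% intervals for the log2 fold change of -0.20 to 0.06, -0.20 to 0.06 and -0.16 to 0.10, and those of Atp5a1 (1423111_at) were -0.19 to 0.08, -0.20 to 0.07 and -0.20 to 0.08.

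Atp5k, the e subunit near the interface of ATP synthase dimers, had in 1450640_x_at 1100.1, 1063, 1190.0 and 1010.4 in HU against 1373, 1523, 1471 and 1512 in WB in Nfkb1-/- mice. It had 6541, 6935, 6585 and 6861 in HU against 7801, 6766, 8035 and 7379.7 in WB in Bcl3-/- mice and 1152, 1325, 1091 and 1089 in HU against 1465, 1513, 1516 and 1424 in WB in WT mice. HU and WB did not overlap in Nfkb1-/- and WT mice and overlapped in Bcl3-/- mice through WB replicate 2, with -0.43 ± 0.08 (adjusted p = 9.2e-04), -0.15 ± 0.08 (adjusted p = 0.22) and -0.35 ± 0.08 (adjusted p = 0.011). Its other probe sets, 1422525_at and 1434053_x_at, gave -0.34 and -0.55 in Nfkb1-/- mice, -0.15 and -0.15 in Bcl3-/- mice and -0.35 and -0.31 in WT mice. Atp5o, the stalk protein that confers sensitivity to oligomycin, had in 1437164_x_at 326, 377, 428 and 293 in HU against 551, 482, 487 and 512 in WB in Nfkb1-/- mice and 459, 475, 417 and 373 in HU against 509, 430.4, 429.9 and 387 in WB in WT mice. In this probe set the separation was complete in Nfkb1-/- mice alone (-0.53 ± 0.12, adjusted p = 0.0044), with -0.10 in Bcl3-/- mice and -0.03 in WT mice. The brighter Atp5o probe set 1416278_a_at had 1297, 1200.2, 1319.6 and 1192 in HU against 1414, 1468, 1595 and 1477 in WB in Nfkb1-/- mice and 1128, 1298, 1287 and 1266 in HU against 1507, 1507, 1471 and 1452 in WB in WT mice. It separated and passed in both, with -0.25 ± 0.07 (adjusted p = 0.02) and -0.26 ± 0.07 (adjusted p = 0.034), and gave -0.07 in Bcl3-/- mice.

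The c ring of ATP synthase is made from 3 genes that encode the same mature protein, and not all of them passed the test. Atp5g1 had 1525, 1564, 1604 and 1513 in HU against 1849, 1974, 2035 and 1947 in WB in Nfkb1-/- mice, Atp5g3 had 2096, 1976, 2049.8 and 1954 in HU against 2508, 2563, 2378 and 2580.3 in WB, and Atp5g2 (1415980_at) had 973, 966, 1008 and 907 in HU against 892, 1072, 1000.2 and 933 in WB. Atp5g1 and Atp5g3 separated fully, with -0.33 ± 0.09 (adjusted p = 0.02) and -0.31 ± 0.07 (adjusted p = 0.0043), while Atp5g2 overlapped at -0.01 ± 0.08 (adjusted p = 0.96). In WT mice the 3 estimates were -0.21, -0.20 and -0.01, and none passed. In Bcl3-/- mice Atp5g2 had 5644, 6251, 5791 and 6021 in HU against 5563, 4492, 5634 and 4962 in WB, with every HU array above every WB array, and its log2 fold change of 0.20 ± 0.08 did not pass (adjusted p = 0.12), nor did those of Atp5g1 (0.02) and Atp5g3 (-0.16).

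Where a knockout passed and WT did not, the difference itself was seldom past the test. The Nfkb1-/- and WT responses differed for 0 of 153 members (limma; 0.176% of all probe sets), with 23 more negative and 3 more positive in Nfkb1-/- mice at an unadjusted p under 0.05, and other settings gave 0 to 3. The Bcl3-/- and WT responses differed for 3 members (1.07% of all probe sets), which were Sdhd 1437489_x_at, more negative, and the pair of Cox7a2l probe sets, more positive; at an unadjusted p under 0.05 there were 5 more negative and 25 more positive. This count was 0 when only the groups compared were fitted and 0 to 4 with 1 array left out. In WB mice Nfkb1-/- and WT levels differed for 0 of 153 members (0.902% of all probe sets), with 1 lower and 6 higher at an unadjusted p under 0.05, and 0 to 2 by other settings. The percentages of all probe sets are at the adjusted threshold. Shares at the unadjusted one were not computed, so the unadjusted counts here and above are description only. Over the 139 members above the floor, 99 had a more negative estimate in Nfkb1-/- mice than in WT mice and 41 in Bcl3-/- mice than in WT mice. Pearson's r across these members was 0.422 between the Nfkb1-/- and WT responses, 0.304 between Bcl3-/- and WT and 0.396 between Bcl3-/- and Nfkb1-/-; probe sets of the same gene are not independent points.

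**Figure D4:**
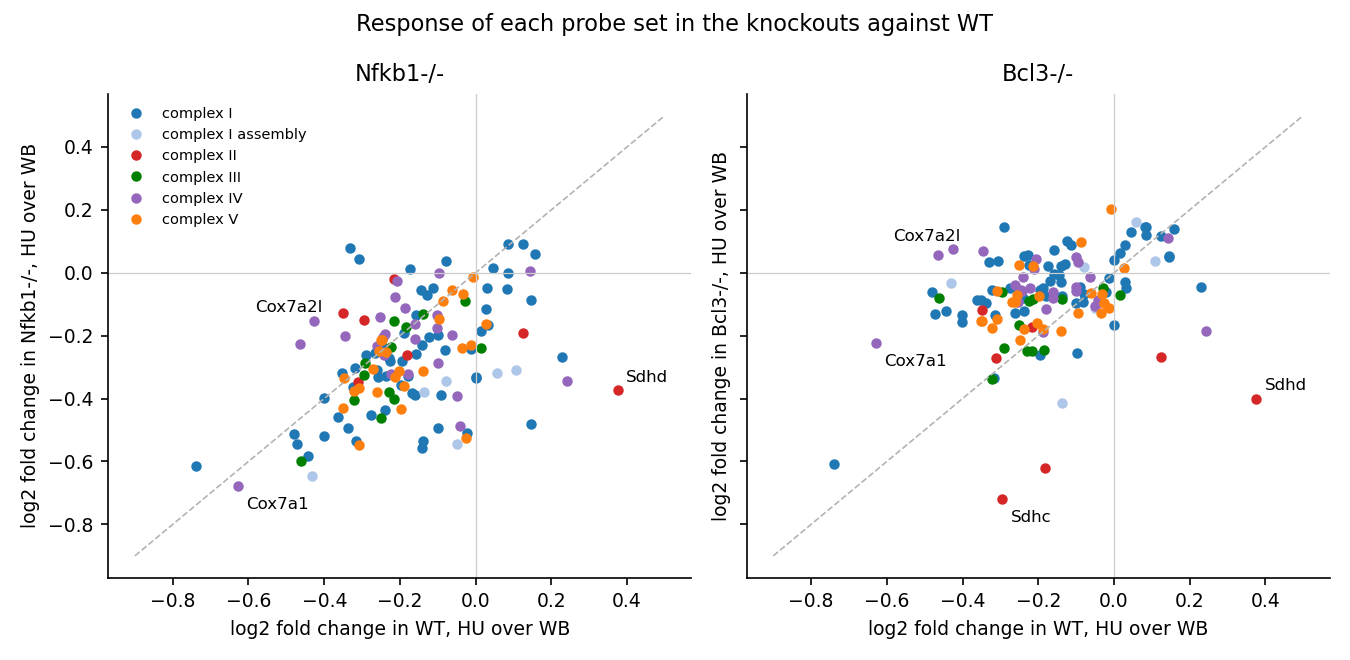
Each point is a member above the floor, with its log2 fold change (HU over WB) in WT mice on the x axis and in the knockout named above the panel on the y axis, coloured by complex; the dashed line marks equal change. In the Nfkb1-/- panel 99 of 139 points lie below the line, in the Bcl3-/- panel 41, where Sdhd is the farthest below, and r was 0.422 and 0.304.

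Probe sets of the same gene read different stretches of its transcripts and gave different sizes. For the 40 genes with several probe sets above the floor, all of them passed for 18 genes in Nfkb1-/- mice, 2 in Bcl3-/- mice and 5 in WT mice, some but not all for 7, 2 and 11, and none for 15, 36 and 24. The spread between the most and least negative log2 fold change of a gene had a median of 0.117 in Nfkb1-/- mice, 0.0536 in Bcl3-/- mice and 0.0706 in WT mice. It was widest for Uqcr10 in Nfkb1-/- mice (0.468) and for Ndufa10 in Bcl3-/- and WT mice (0.349 and 0.545). Ndufa12, an accessory subunit by the NADH-oxidising arm, gave -0.26, -0.34 and -0.48 in Nfkb1-/- mice and -0.16, 0.00 and 0.15 in WT mice through 1418814_s_at, 1433513_x_at and 1455806_x_at.

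Genes that work beside the complexes were described with 1 probe set per gene. Over all probe sets tested, 6.59%, 2.81% and 1.66% were lower in Nfkb1-/-, Bcl3-/- and WT mice, and 4.79%, 7.59% and 2.31% were higher. Of 17 electron carriers and partners of the chain, 8 were lower in Nfkb1-/- mice, 5 in Bcl3-/- mice and 4 in WT mice, and 0 were higher (medians -0.31, -0.14 and -0.11). Ckmt2, the mitochondrial creatine kinase of muscle that exports ATP energy as phosphocreatine, and Coq7, a hydroxylase of ubiquinone synthesis, were lower in all 3: Ckmt2 by -0.72 ± 0.11, -0.62 ± 0.11 and -0.65 ± 0.11 and Coq7 by -0.73 ± 0.11, -0.54 ± 0.11 and -0.59 ± 0.11 on the log2 scale. Of 16 citrate cycle and pyruvate dehydrogenase genes, 6, 2 and 2 were lower and 0 higher (medians -0.2, -0.08 and -0.11), with Idh2, the mitochondrial isocitrate dehydrogenase that uses NADP, at -1.07 ± 0.18 in Bcl3-/- mice (adjusted p = 8.2e-04), against -0.32 in Nfkb1-/- mice and -0.52 in WT mice, which did not pass. Of 35 assembly factors, 13 were lower in Nfkb1-/- mice, 1 in Bcl3-/- mice and 2 in WT mice, where 2 were higher (medians -0.26, 0.01 and -0.07). The 2 higher in WT mice were Cox17, a copper carrier to complex IV, and Cox20, a chaperone of its subunit II, and the Cox20 response was more negative in Nfkb1-/- mice (-0.64 ± 0.12, adjusted p = 0.034) and in Bcl3-/- mice (-0.51 ± 0.12, adjusted p = 0.041) than in WT mice.

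Mitochondrial ribosomal proteins, which make the subunits encoded in mitochondrial DNA, were a list of similar size, with counts close to those of the members in Nfkb1-/- mice and smaller ones in WT mice. Of 74 genes, 36 were lower in Nfkb1-/- mice (median -0.28), 1 in Bcl3-/- mice (0.01) and 2 in WT mice (0.004), and 0, 2 and 3 were higher. The shares of all probe sets tested were 6.59%, 2.81% and 1.66% lower and 4.79%, 7.59% and 2.31% higher. The members, counted the same way over 84 genes, had 43, 7 and 19 lower and medians of -0.24, -0.06 and -0.18. The subunits encoded in mitochondrial DNA were not analysed here, since 0 of 13 had a probe set. Of 17 regulators of mitochondrial biogenesis, 4 were lower in Nfkb1-/- mice (Ppargc1a, Ppargc1b, Esrra and Ssbp1), 2 in Bcl3-/- mice (Ppargc1a and Esrra), where Polrmt, the mitochondrial RNA polymerase, was higher (0.40, adjusted p = 0.025), and 1 in WT mice (Ppara). The medians of the list were near 0, at -0.01222, -0.0001484 and -0.1017. Ppargc1a, the coactivator PGC-1 alpha, was lower in both knockouts (-0.56 ± 0.11, adjusted p = 0.0022, and -0.66 ± 0.11, adjusted p = 1.0e-03) and -0.36 ± 0.11 in WT mice (adjusted p = 0.075). Esrra, which encodes ERR alpha, was also lower in both knockouts (-0.31, adjusted p = 0.0496, and -0.39, adjusted p = 0.019) and -0.14 in WT mice (adjusted p = 0.54). Neither response differed between a knockout and WT by the test of the difference. Nrf1 and Tfam passed in no genotype, with 0.19, 0.23 and -0.06 for Nrf1 and -0.02, 0.24 and 0.12 for Tfam.

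**Figure D5:**
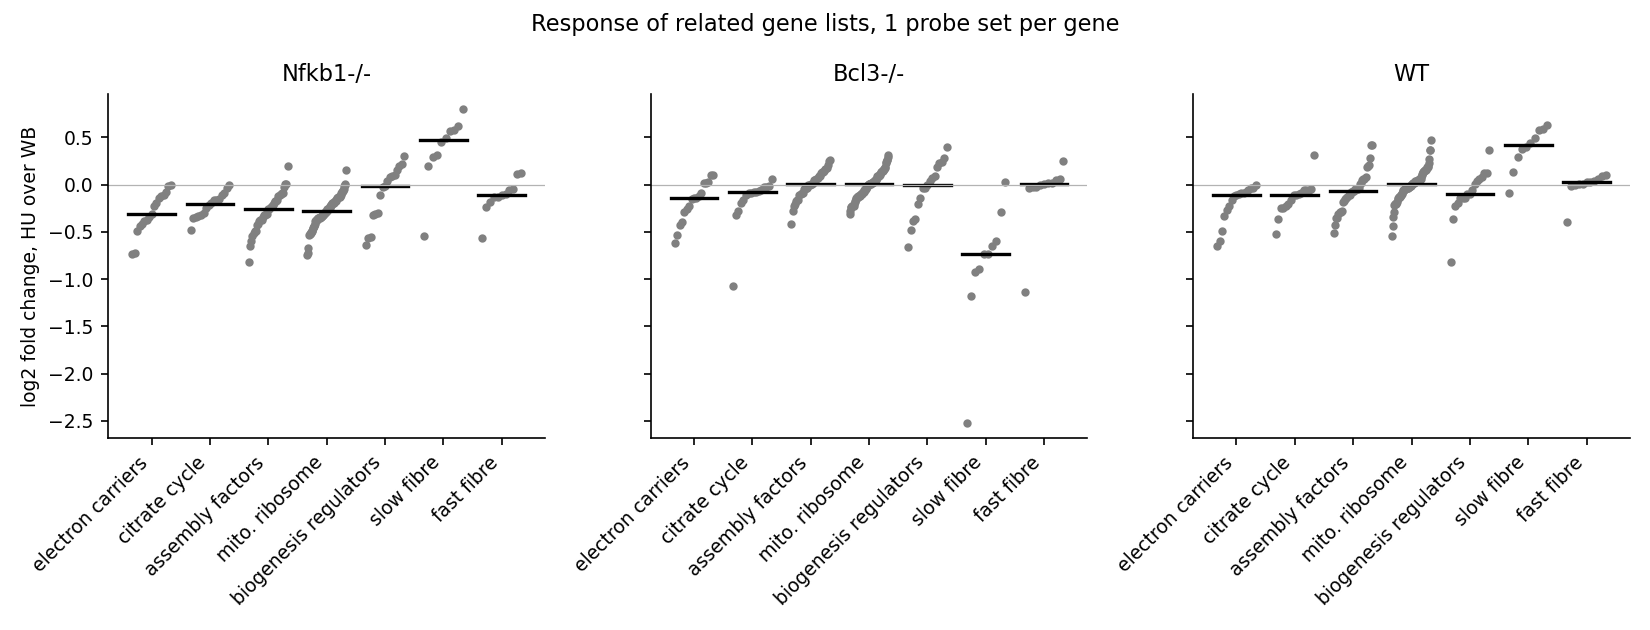
Each point is a gene, placed by list on the x axis and by log2 fold change (HU over WB) on the y axis, with a black line at the median of the list. The medians of electron carriers were -0.31, -0.14 and -0.11 in Nfkb1-/-, Bcl3-/- and WT mice, those of mitochondrial ribosomal proteins -0.28, 0.01 and 0.004, and those of slow fibre isoforms 0.47, -0.73 and 0.42.

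Slow fibre contractile isoforms were higher or did not pass in Nfkb1-/- mice, and most were lower in Bcl3-/- mice. Of 10 such genes, 0 were lower and 4 higher in Nfkb1-/- mice (median 0.47), 7 lower and 0 higher in Bcl3-/- mice (-0.73), and 0 lower and 0 higher in WT mice (0.42). Among all probe sets tested, 6.59%, 2.81% and 1.66% were lower in these genotypes, and 4.79%, 7.59% and 2.31% higher. Myh7, the slow myosin heavy chain, gave 0.58 ± 0.19, -0.73 ± 0.19 and 0.58 ± 0.19, and the Bcl3-/- minus WT difference was -1.31 ± 0.27 (adjusted p = 0.017). In summed intensity the 10 slow genes ranged over 18990 to 24710 in Bcl3-/- HU against 33820 to 39730 in WB arrays, over 3939 to 8240 in Nfkb1-/- HU against 4011 to 6119 in WB arrays, and over 6962 to 9295 in WT HU against 5583 to 7332 in WB arrays. Of 11 fast fibre isoforms, 1 was lower in Nfkb1-/- mice (Myl1), 1 was lower (Myh2) and 1 higher (Actn3) in Bcl3-/- mice, and 0 passed in WT mice. Their summed intensity stood apart in Nfkb1-/- mice, at 59280 to 60790 in HU against 62980 to 64950 in WB arrays. It overlapped in Bcl3-/- mice (174900 to 177100 against 169200 to 183700) and WT mice (62260 to 66260 against 62160 to 63890). Myh2, the myosin heavy chain of fast oxidative fibres, averaged 5436 ± 1170 in HU against 11717 ± 517 in WB in Bcl3-/- mice (SD, n = 4 each), a log2 fold change of -1.13 ± 0.23 (adjusted p = 0.003), with -0.57 in Nfkb1-/- mice (adjusted p = 0.11) and -0.40 in WT mice (adjusted p = 0.38). The part of fibre makeup in the subunit results was not tested.

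Markers of other cells in the muscle also moved. For comparison, 6.59%, 2.81% and 1.66% of all probe sets were lower in Nfkb1-/-, Bcl3-/- and WT mice, and 4.79%, 7.59% and 2.31% higher. Of 8 tendon and fibroblast genes, 4, 4 and 2 were lower in Nfkb1-/-, Bcl3-/- and WT mice, and their summed intensity was 3049 to 5068 in Nfkb1-/- HU against 5731 to 6616 in WB arrays, 19320 to 26580 in Bcl3-/- HU against 27190 to 37490 in WB arrays and 4666 to 5064 in WT HU against 5758 to 6995 in WB arrays. Of 10 macrophage genes, Lgals3 was higher in Nfkb1-/- and WT mice, and of 7 neutrophil genes S100a8 and S100a9 were higher in both knockouts. The neutrophil sums were 67.01 to 147.7 in Nfkb1-/- HU against 38.61 to 51.63 in WB arrays, 387.8 to 879 in Bcl3-/- HU against 245.4 to 261.9 in WB arrays and 40.31 to 117.5 in WT HU against 34.79 to 44.69 in WB arrays. Fat cell genes were higher for 2 of 4 in Nfkb1-/- mice, with sums of 1019 to 1312 in HU against 775.3 to 1083 in WB arrays. The remaining lists were cardiac muscle, endothelium, brown fat, red blood cells, Schwann cells and satellite cells, and each had 0 or 1 gene past the test per genotype. Among these, HU and WB sums stood apart for Schwann cells in Nfkb1-/- mice (518.6 to 793.6 in HU against 338.1 to 436 in WB arrays) and for satellite cells in Nfkb1-/- mice (39.56 to 40.71 in HU against 36.64 to 38.95 in WB arrays) and WT mice (42.49 to 46.69 in HU against 38.4 to 42.18 in WB arrays). Those satellite cell sums are over 5 genes, and most of these were under the intensity minimum of 20. Whether such small shifts in dim signal reflect satellite cells was not tested. The neutrophil sums are over 7 genes, each of which averaged under 20 in Nfkb1-/- and WT WB arrays. In HU arrays only S100a8 and S100a9 averaged over 20 in Nfkb1-/- mice, and only S100a8 in WT mice. The part of all these other cells in the subunit results was not tested.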

How the data were processed

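RNA from the gastrocnemius and plantaris of each mouse was amplified in 2 cycles and hybridised to 1 array per mouse. Array files were made with GCOS, and the authors applied RMA with quantile normalization, then deposited 1 intensity per probe set on a linear scale; the annotation build is not given in the sources used here. The Bcl3-/- arrays were deposited on a higher scale. Here intensities were taken as log2, probe sets over 20 on at least 4 arrays were kept (19294), and all 24 arrays were fitted with 1 mean per group in limma 3.58.1 (R 4.3.3) with moderated variances and Benjamini-Hochberg adjustment at 0.05. Per genotype HU was set against WB, followed by the knockout minus WT difference in that response, and Nfkb1-/- minus WT in WB mice. Probe sets were named from the platform annotation: 20380 had 1 gene, 691 several and 1555 none listed. The number of arrays limits the precision.

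The probe sets described one by one were up to 2 members per complex and genotype with the largest changes whose arrays do not overlap, members lower in all 3 genotypes, members whose response differed, tissue forms and catalytic subunits (40 probe sets, 31 genes); most are given by array and the others by their estimates. Atp5o 1416278_a_at, Ndufs3, Ndufa7, Ndufa12 and Myh2 were outside this rule and were added after their values were seen. Further probe sets of the chosen genes, and the other genes named from the related lists, were also not chosen by this rule. The members and lists were chosen with earlier results of these data known, and the groups within complexes after their values were seen. Promoters came from RefSeq. Alternatives covered the filter, the groups fitted, variance, array weights, scaling, the pseudocount, 1 probe set per gene, blocks of replicate numbers, the methods' t-test and leaving out each array. The test was checked on simulated data for WT mice, where the recovery required was of falls larger than those of the members. The check therefore does not bear on falls of the size reported. The authors' deposited table held no fold changes or p-values.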

Additional observations from a re-analysis of the deposited data

Results flagged for a closer look

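In 294 sets of 4 arrays (the means over members and over each complex, and the 40 probe sets chosen by rule), 1 array stood far from the other 3 in 16; chance gives about 1 in 20. In Nfkb1-/- mice these were WB replicate 1 in the mean over complex V (-0.037), Cox6a1 1417417_a_at in WB replicate 3 (370.8), Cox7a2l 1432263_a_at in HU replicate 3 (152.8) and 1432264_x_at in HU replicate 1 (259.6), Ndufs8 1434579_x_at in HU replicate 4 (724.7) and Uqcr10 1434340_at in HU replicate 3 (148.6). In Bcl3-/- mice they were WB replicate 4 in Cox5a 1415933_a_at (10249) and in Cox6a1 1417417_a_at (2493). In WT mice they were HU replicate 1 in Cox7a2 1416970_a_at (1809), Ndufv1 1415967_at (682.8), Sdha 1426688_at (857.4) and Sdhc 1435986_x_at (158.0), HU replicate 2 in Atp5k 1434053_x_at (983.4) and Ndufa10 1418068_at (29.7), HU replicate 4 in Sdhd 1437489_x_at (37.98), and WB replicate 3 in Atp5k 1422525_at (1109).

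By the test of the difference, the response to unloading differed between Bcl3-/- and WT mice for Sdhd 1437489_x_at (-0.776 on the log2 scale), Cox7a2l 1432263_a_at (0.522) and Cox7a2l 1432264_x_at (0.50). The Bcl3-/- and WT arrays also differ in strain and in scale, and these cannot be told apart from the genotype.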

How the results depend on the processing

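The direction of the median member change was the same under every alternative run. Counts have no direction to reverse, so this holds for the medians only. The medians with 1 array left out ranged from -0.2732 to -0.228 in Nfkb1-/- mice, -0.1073 to -0.0443 in Bcl3-/- mice and -0.1978 to -0.1454 in WT mice. Counts of calls depended on the setting. With only the groups compared in the fit, and so fewer arrays for the variance, 3 members were lower in WT mice and 4 in Bcl3-/- mice, and 0 differed between Bcl3-/- and WT. With array weights, 22 were lower in Bcl3-/- mice and 68 in WT mice, 1 was higher in Nfkb1-/- mice and 1 in WT mice, 3 responses differed between Nfkb1-/- and WT, and 2 members differed between Nfkb1-/- and WT in WB. In Bcl3-/- mice 17 were lower with a trended, robust variance, 26 with a repeated quantile normalization, 20 with it within each scale and 25 with 16 added to the intensity, where 1 was higher and 5 responses differed from WT. Nfkb1-/- and WT responses differed for 3 members with the filter applied within each scale, 2 with the trended variance, 2 with 16 added, 1 with quantile normalization within each scale and 1 with centring on array medians. With 1 probe set per gene, 44 genes were lower in Nfkb1-/- mice and 19 in WT mice, and 1 response differed between Bcl3-/- and WT. The methods' t-test keeps members that vary by at least 1.7 times, which left 19, 10 and 5 in Nfkb1-/-, Bcl3-/- and WT mice. Of these 19, 3 and 5 were lower at an unadjusted 0.05, and 18, 0 and 1 after Benjamini-Hochberg adjustment. The causes were not tested.

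With 1 array left out, members lower in HU numbered 58 to 73 in Nfkb1-/- mice, 5 to 13 in Bcl3-/- mice and 14 to 46 in WT mice, members higher 0 to 1 in Nfkb1-/- mice, and responses that differed from WT 0 to 1 for Nfkb1-/- and 0 to 4 for Bcl3-/-. The last count was 0 without WT HU replicate 1, WT WB replicate 1 or Bcl3-/- HU replicate 1. The labels give each group the replicate numbers 1 to 4, but these do not pair the mice: the correlation of same-numbered arrays ran from -0.173 to 0.222. Fitted with replicate numbers as blocks, 69, 9 and 26 members were lower in Nfkb1-/-, Bcl3-/- and WT mice, and 0 and 2 responses differed from WT.

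Dim probe sets limit the counts: 14 tested members did not exceed 20 on 4 Nfkb1-/- and WT arrays, and 4 were not tested. Where a count of 0 is given, 4 arrays a group leave changes smaller than the intervals printed undetected.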
